A study of Homo sapiens with 9 samples.

Results

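The EGF family ligands and ERBB receptors were followed across the MDA-MB-231 breast cancer cell line and its metastatic sub-populations. They are the 9 genes EREG, AREG, HBEGF, TGFA, BTC, NRG1, EGFR, ERBB2 and ERBB3, 6 ligands and 3 receptors, taken by symbol from the 58884 genes of the deposited count table. RNA-seq was made from the parental line (Par), from LM2, its lung metastatic sub-population, and from BrM2, its brain metastatic sub-population, with 3 replicates each and 9 libraries in all. Cells of every line were cultured for 3 days in DMEM with 10% FBS and penicillin-streptomycin, with no other treatment, and the replicates were harvested at different passages. MDA-MB-231 is a claudin-low, triple-negative human line, and both sub-populations were selected from it in mice, so that each line stands for 1 selected population rather than for several independent metastases. The question of the design is how the metastatic sub-populations differ from Par and from each other.

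EGF family ligands are made as membrane-anchored precursors, and metalloproteases such as ADAM17 and ADAM10 cut them loose. AREG, EREG, HBEGF, TGFA and BTC bind EGFR, and some of them bind ERBB4 as well, whereas neuregulins such as NRG1 bind ERBB3 and ERBB4. Binding lets the receptors pair with each other, ERBB2 being the preferred partner although it has no known ligand and ERBB3 having little kinase activity of its own, and the pairs signal through RAS and MAP kinase and through PI3 kinase. In breast cancer, EGFR is prominent in triple-negative lines and ERBB2 is the amplified gene of its own subtype.

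The libraries held 14371867 to 24511790 counts on genes, and the shallowest was a BrM2 library. The filter on low counts left 13055 genes, and all 9 members were among them. The lines were compared by the quasi-likelihood test of edgeR, fitted to the 9 libraries together, and a gene was called where its p, after Benjamini-Hochberg adjustment across these 13055 genes, was under 0.05. Levels are CPM, the counts scaled to a common library size, as mean ± SD over 3 replicates. Deviations from the line means correlated between same-numbered replicates of the lines, and replicate 1 stood apart from replicates 2 and 3. Whether replicates 2 and 3 are paired by number was not tested. The fit that holds replicate number constant, called the replicate block here, is therefore given beside each member whose call it changes. Of the 6 mesenchymal markers, VIM, CD44, AXL and FN1 were each at 275 CPM or more in every library, ZEB1 was between 18.2 and 139 CPM, and CDH2 had 3 to 14 counts. FN1 was called 3.05-fold lower in BrM2 than in Par. VIM was called higher than in Par in both sub-populations, 2.12-fold in LM2 (edgeR adjusted p = 0.0196) and 2.07-fold in BrM2 (edgeR adjusted p = 0.0163). Among the epithelial markers CDH1 had 3 to 37 counts, while KRT19 was between 169 and 252 CPM in Par, 29.1 and 72.9 in LM2 and 104 and 284 in BrM2. Of the luminal markers ESR1 had 2 to 16 counts and PGR 0 to 4. The other luminal markers went in opposite directions. GATA3 had 230 to 295 counts in Par, 94 to 110 in LM2 and 131 to 138 in BrM2. It was called lower in LM2 vs Par (log2 fold change -1.57, edgeR adjusted p = 0.012) and not in BrM2 vs Par (-0.79, 0.129). FOXA1, with 0 or 1 count in Par, 13 to 16 in LM2 and 18 to 55 in BrM2, was called higher in both sub-populations. It passed the filter on low counts only through BrM2, where it was highest. The 8 markers of blood, endothelial, liver, lung and neural cells summed to 19.5 to 25.1 CPM in Par, 12.8 to 26.9 in LM2 and 10.1 to 15.5 in BrM2, most of it GFAP, CD14 and PECAM1, and PTPRC, CDH5, ALB, SFTPC and RBFOX3 had at most 6 counts in any library. In such bulk samples, fewer cells that express a gene and less RNA per cell cannot be told apart.

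In LM2, 2 of the 9 members were called against Par, and these went in opposite directions. EREG rose and AREG fell. The background of called genes was 8.69% here, with 4.17% higher and 4.52% lower in LM2. In BrM2, 6 members were called against Par, where 13.3% of all genes were called, 6.25% higher and 7.02% lower. AREG, TGFA and BTC fell, and NRG1, EGFR and ERBB3 rose. The direct comparison of BrM2 with LM2 called 4 members, EREG, TGFA and BTC lower and NRG1 higher in BrM2, against 8.1% of all genes, 4.11% higher and 3.99% lower. With the replicate block, the members called numbered 5 for LM2 vs Par, 8 for BrM2 vs Par and 7 for BrM2 vs LM2, where that model called 34.5%, 42.7% and 37.5% of all genes. Without replicate 1 of all lines, they were 6, 8 and 6, with 33.1%, 40.4% and 32.6% of all genes. Without replicate 2 they were 1, 1 and 0, with 0.536%, 1.22% and 0.406% of all genes, and without replicate 3 they were 1, 2 and 0, with 1.04%, 2.1% and 0.866%. Only AREG against Par, in both sub-populations, was called in each of these fits, and BTC in BrM2 vs Par kept its call without replicate 3. The libraries of the lines compared did not overlap for 4 members in LM2 vs Par, 7 in BrM2 vs Par and 6 in BrM2 vs LM2, and for 25.2%, 31.3% and 23.1% of all genes. Both comparisons with Par use the same Par libraries.

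**Figure D1:**
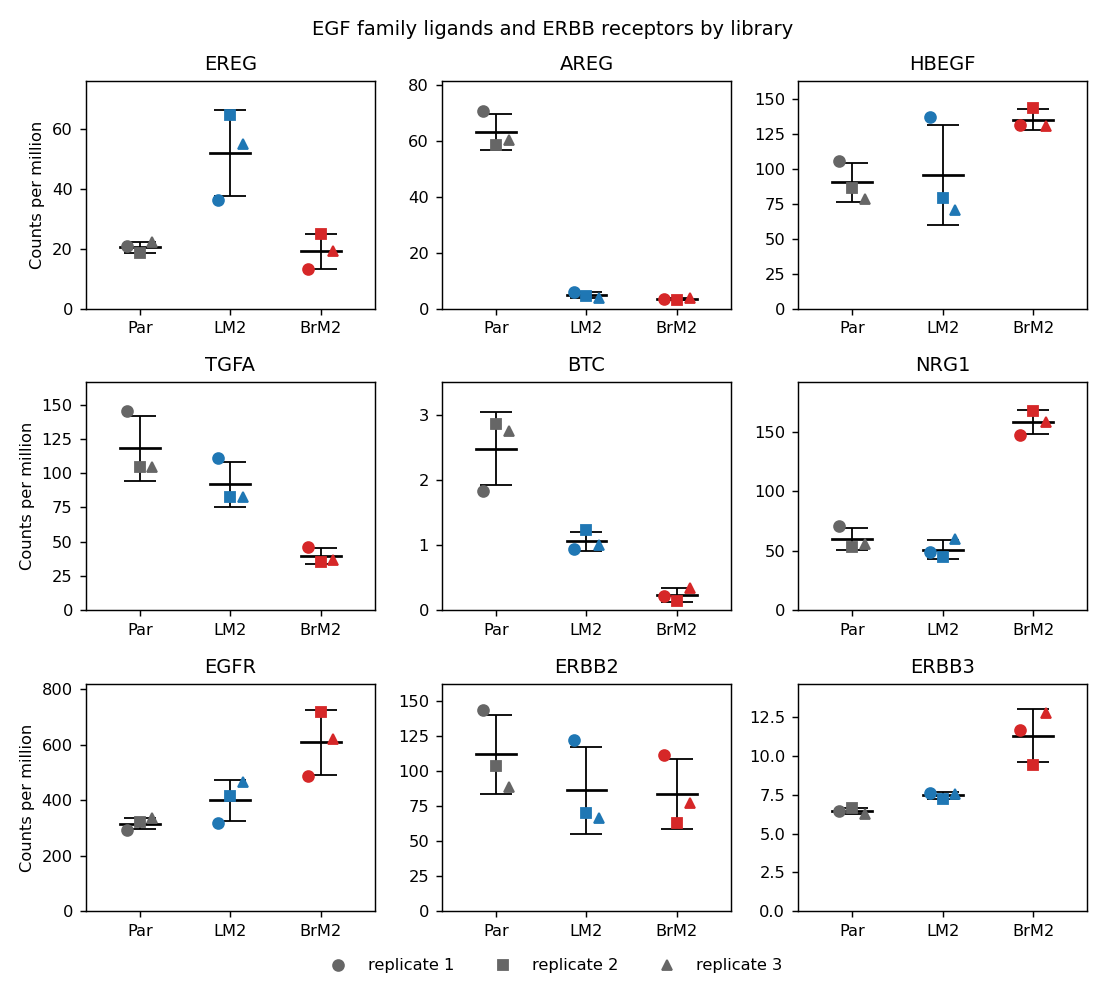
Normalized CPM of the 9 members in each library, by line, on linear axes that start at 0; the marker shape gives the replicate number, the long bar the mean and the whiskers ± 1 SD (n = 3). AREG stands at 58.6 to 70.7 CPM in the Par libraries and at no more than 6.16 CPM in LM2 and BrM2, and NRG1 is highest in the 3 BrM2 libraries.

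**Figure D2:**
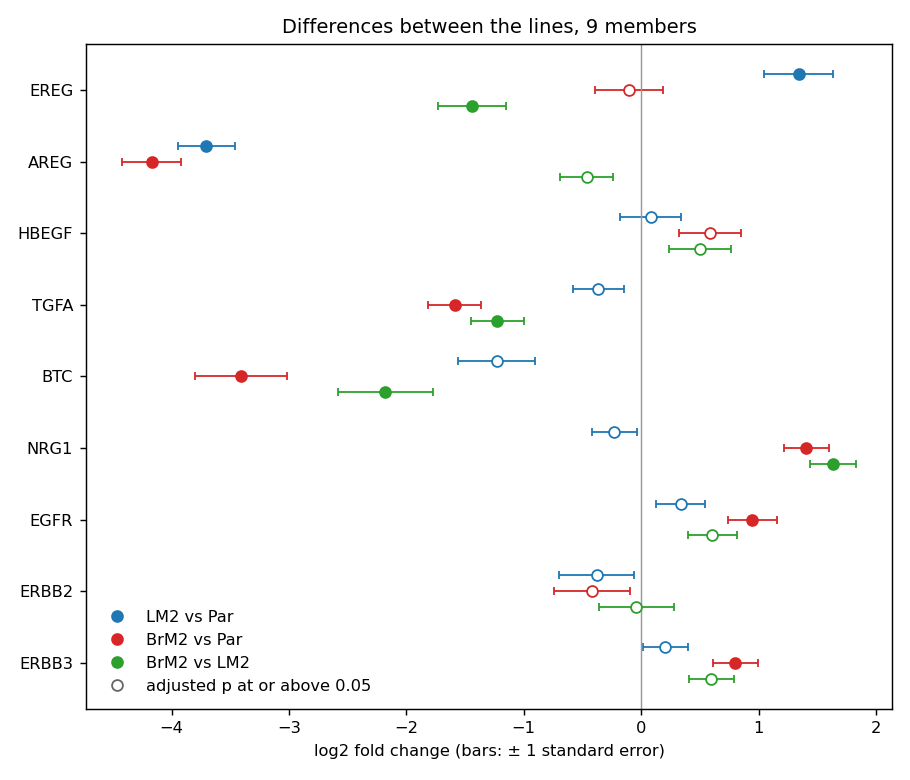
Fitted log2 fold changes of the 9 members in the 3 comparisons, with bars of ± 1 standard error; filled points have an adjusted p under 0.05 in edgeR. AREG lies farthest from 0, with -3.70 for LM2 vs Par and -4.17 for BrM2 vs Par, and ERBB2 has no filled point.

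AREG encodes amphiregulin, an EGFR ligand of the mammary epithelium. It had 1345, 1210 and 1538 counts in Par. The LM2 libraries held 124, 110 and 102, and those of BrM2 47, 71 and 82. All Par libraries were thus far above those of both sub-populations, and the LM2 and BrM2 libraries overlapped once scaled for depth. The level was 63.2 ± 6.52 CPM in Par, 4.85 ± 1.17 in LM2 and 3.51 ± 0.40 in BrM2. Against Par it was 13.0-fold lower in LM2, a log2 fold change of -3.70 (standard error, SE = 0.24, edgeR adjusted p = 8.48e-05). In BrM2 it was 18.0-fold lower, with a log2 fold change of -4.17 (SE = 0.25, edgeR adjusted p = 3.89e-05). Both calls held in each of the 9 fits that left out 1 library. The 7 epithelial markers summed to 263 to 381 CPM in Par, most of it KRT19 and CLDN4, 47.5 to 96.3 in LM2 and 133 to 344 in BrM2. CLDN4 was called lower in both sub-populations. KRT19 was called lower in LM2 but not in BrM2 (log2 fold change -0.11, edgeR adjusted p = 0.932). EPCAM and CLDN7 were not called against Par, and CDH1, CLDN3 and ESRP1 did not pass the filter. ESRP1 had 0 to 6 counts in Par and 6 to 20 in LM2. The markers thus did not move as a set, and their part in the result was not tested. In the older GRCh37 annotation, 94.0% of the 50-base stretches of AREG also occur in AREGB, a name that RefSeq gives for GRCh38.p14 as a synonym of AREG. Between BrM2 and LM2, AREG gave -0.46 on the log2 scale with a 95% interval from -0.98 to 0.05 (edgeR adjusted p = 0.294).

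EREG encodes epiregulin, the EGFR ligand whose gene lies next to AREG on chromosome 4. Its counts were 397, 386 and 566 in Par, 734, 1589 and 1440 in LM2, and 179, 565 and 404 in BrM2. Every LM2 library was above every Par and BrM2 library, and LM2 replicate 1 was the lowest of its line. EREG stood at 52.2 ± 14.4 CPM in LM2, 20.6 ± 1.79 in Par and 19.2 ± 5.87 in BrM2. The log2 fold change was 1.34 in LM2 vs Par (SE = 0.29, edgeR adjusted p = 0.0223) and -1.44 in BrM2 vs LM2 (SE = 0.29, edgeR adjusted p = 0.017), and each of the 3 replicate numbers showed both directions. The call in LM2 vs Par was lost without Par replicate 1, 2 or 3 or LM2 replicate 2 or 3, with adjusted p from 0.0699 to 0.108 and log2 fold changes from 1.15 to 1.40. That in BrM2 vs LM2 was lost without LM2 replicate 2 (0.0746), LM2 replicate 3 (0.0586) or BrM2 replicate 3 (0.0777), and with the 2 lines alone (0.0681). Without replicate 2 or 3 of all lines, adjusted p were 0.376 and 0.332 in LM2 vs Par and 0.215 and 0.355 in BrM2 vs LM2. Between BrM2 and Par the libraries of EREG overlapped and the 95% interval of the log2 fold change ran from -0.75 to 0.55 (edgeR adjusted p = 0.901).

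BTC encodes betacellulin, a ligand of EGFR and ERBB4. It was the lowest of the ligands, with 35, 59 and 70 counts in Par, 19, 30 and 26 in LM2, and 3, 3 and 7 in BrM2. The lines did not overlap in any comparison, Par being highest and BrM2 lowest. At 0.230 ± 0.102 CPM in BrM2 against 2.48 ± 0.559 in Par, BTC fell, with a log2 fold change of -3.41 (SE = 0.39, edgeR adjusted p = 0.000675). From LM2, at 1.05 ± 0.149 CPM, to BrM2 the log2 fold change was -2.18 (SE = 0.40, edgeR adjusted p = 0.011). BTC passed the filter on low counts only through Par, the line in which it was highest, and without that filter both differences remained called (edgeR adjusted p = 5.37e-06 and 0.00559). Without replicate 2 of all lines the adjusted p were 0.071 and 0.346, and without replicate 3 that against LM2 was 0.159. In LM2 vs Par, BTC had a log2 fold change of -1.23 and an edgeR adjusted p of 0.0504, which was 0.00645 with the replicate block, 0.0471 with the filterByExpr filter, 0.0133 in DESeq2 and 0.091 without a filter. The few counts in BrM2 limit the precision of its fold, and the 95% interval of the BrM2 vs Par difference on the log2 scale ran from -4.30 to -2.52.

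The 3 ligand genes EREG, AREG and BTC lie in this order along chromosome 4 of GRCh38.p14. EREG spans 74365145 to 74388749, AREG 74445136 to 74455005 and BTC 74744759 to 74794523, the last on the minus strand. The 250 bases before the annotated start of each gene are shown, because these neighbours had different patterns over the lines: EREG rose in LM2, AREG fell in both sub-populations and BTC fell in BrM2. The sequences come from RefSeq (GRCh38.p14), are written 5′ to 3′ on the strand of the gene, and carry in capitals the matches to the motifs listed after them. The windows are chr4:74364895-74365144 for EREG, chr4:74444886-74445135 for AREG and chr4:74794524-74794773 for BTC.
EREG: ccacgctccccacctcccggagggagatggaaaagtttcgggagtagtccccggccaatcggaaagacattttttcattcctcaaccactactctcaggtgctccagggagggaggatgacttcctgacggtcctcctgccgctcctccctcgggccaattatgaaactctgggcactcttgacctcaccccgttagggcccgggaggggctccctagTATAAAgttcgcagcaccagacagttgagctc
AREG: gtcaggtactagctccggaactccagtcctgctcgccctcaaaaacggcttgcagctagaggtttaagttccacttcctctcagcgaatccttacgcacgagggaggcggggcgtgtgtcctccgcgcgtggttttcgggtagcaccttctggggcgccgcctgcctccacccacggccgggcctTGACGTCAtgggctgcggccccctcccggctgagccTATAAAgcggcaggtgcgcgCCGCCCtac
BTC: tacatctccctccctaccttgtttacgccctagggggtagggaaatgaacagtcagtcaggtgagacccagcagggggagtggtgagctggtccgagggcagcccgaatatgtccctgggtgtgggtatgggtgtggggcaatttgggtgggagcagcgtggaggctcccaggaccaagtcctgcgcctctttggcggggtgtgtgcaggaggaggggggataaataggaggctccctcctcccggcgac
The motifs were searched on both strands over the 250 bases before and the 50 bases after the start. The letters TATAAA of the core promoter box began 29 bases before the start in AREG and 32 bases before it in EREG, and 11.5% of the 35116 promoters of the table hold them in at least 1 copy. The cAMP response element was searched as TGACGTCA. It was found in AREG, beginning 65 bases before the start, and 1.85% of all promoters hold it. The box of Sp1, GGGCGG, began 9 bases before the start in AREG and, outside the stretch shown, 23 bases after the start in BTC, and 45.0% of all promoters had one. The AP-1 site, searched as TGACTCA, was in none of these 3 windows, against 4.95% of all promoters with a match, and a wider search that took any middle base, run earlier, found none there either, against 7.71%. The motifs shared no bases in these windows. A match describes letters only. Promoters were matched for 7 of the 9 members, with 9 entries in all. ERBB3 had no matching entry, and NRG1 was left out of the matching.

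Around these genes, 31 genes are annotated within 500 kb of EREG, AREG or BTC, and 7 of them passed the filter on low counts. Besides the 3 ligands these were CXCL1 and CXCL2, which encode neutrophil-attracting chemokines, MTHFD2L, a mitochondrial folate enzyme, and PARM1, a mucin-like membrane protein. PARM1 had 30, 33 and 43 counts in Par, 226 to 269 in LM2 and 100 to 243 in BrM2, and rose by a log2 fold change of 2.72 in LM2 (SE = 0.22, edgeR adjusted p = 0.000205) and 2.50 in BrM2 (SE = 0.22, edgeR adjusted p = 0.000219). CXCL1, with 21 to 45 counts in Par, had a log2 fold change of 1.57 in BrM2 (edgeR adjusted p = 0.0171) and of 1.20 in LM2 (adjusted p = 0.0679, and 0.0136 with the replicate block). PARM1 and CXCL1 passed the filter on low counts only through the sub-populations, where they were higher. Their rises are therefore from genes tested because of those lines. MTHFD2L, which lies between CXCL2 and the ligands, had log2 fold changes of 0.38 and 0.06 with adjusted p of 0.606 and 0.953 in edgeR, and CXCL2 had -0.50 and -0.47 with 0.569 and 0.543. The neighbours EREG and AREG, which did not depend on the filter in this way, went in opposite directions in LM2 vs Par. EPGN, which encodes the ligand epigen and lies beside EREG, had 0 to 6 counts per library.

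**Figure D3:**
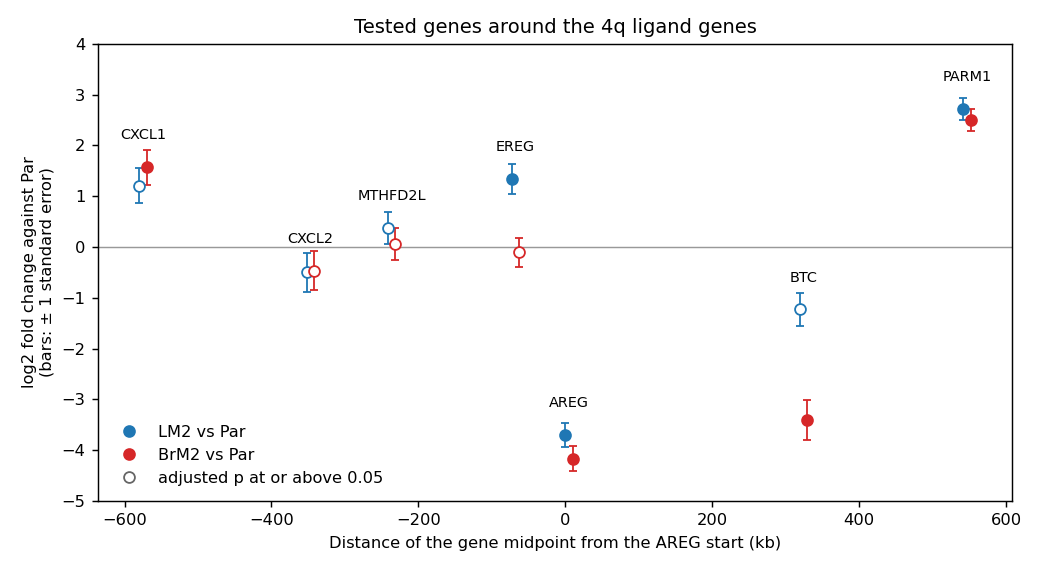
Fitted log2 fold changes against Par of the 7 tested genes around EREG, AREG and BTC, plotted against the distance of each gene's midpoint from the start of AREG in kb; bars are ± 1 standard error, and filled points have an adjusted p under 0.05 in edgeR. AREG lies near -4 in both sub-populations between EREG, called higher in LM2 vs Par, and BTC, and PARM1 at the right is higher in both.

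TGFA encodes transforming growth factor alpha, an EGFR ligand made by many carcinomas. It had 2770, 2156 and 2664 counts in Par, 2230, 2020 and 2145 in LM2, and 621, 798 and 768 in BrM2. The BrM2 libraries were below all others, while those of Par and LM2 overlapped. TGFA stood at 39.3 ± 5.73 CPM in BrM2, 118 ± 23.7 in Par and 91.8 ± 16.5 in LM2. It was 3.01-fold lower in BrM2 than in Par, a log2 fold change of -1.59 (SE = 0.23, edgeR adjusted p = 0.00196), and this call held in all 9 fits that left out 1 library. In BrM2 vs LM2 its log2 fold change was -1.22 (SE = 0.22, edgeR adjusted p = 0.0103), and the call was lost without BrM2 replicate 2 (0.0603) or BrM2 replicate 3 (0.061). Without replicate 2 or 3 of all lines, TGFA had adjusted p of 0.126 and 0.115 against Par and of 0.318 and 0.297 against LM2. LM2 vs Par gave -0.36 on the log2 scale, with an adjusted p of 0.431 and, with the replicate block, of 0.0207 in edgeR. Within each replicate number, TGFA was 0.34 to 0.39 lower in LM2 than in Par on the log2 scale.

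HBEGF encodes heparin-binding EGF, a ligand of EGFR and ERBB4. It had 2013, 1787 and 1994 counts in Par, 2750, 1941 and 1839 in LM2, and 1776, 3254 and 2724 in BrM2. LM2 replicate 1 stood far above the other LM2 libraries, at 137 CPM against 79.2 and 70.4 CPM, and reached the BrM2 libraries, which were between 131 and 144 CPM. All BrM2 libraries were above all Par libraries. HBEGF was not called in any comparison. The log2 fold change was 0.58 in BrM2 vs Par (SE = 0.26, edgeR adjusted p = 0.21) and 0.50 in BrM2 vs LM2 (SE = 0.26, edgeR adjusted p = 0.331), and with the replicate block the adjusted p were 0.0139 and 0.0239. Without LM2 replicate 1, HBEGF was called in both, with adjusted p of 0.0498 and 0.03 and with a log2 fold change of 0.85 in BrM2 vs LM2. In LM2 vs Par it gave 0.08 on the log2 scale (edgeR adjusted p = 0.929), and -0.27 without that library.

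NRG1 encodes neuregulin 1, the main ligand of ERBB3. Its counts were 1341, 1100 and 1413 in Par, 977, 1098 and 1556 in LM2, and 2004, 3806 and 3314 in BrM2. Par and LM2 overlapped, and all BrM2 libraries lay above them. NRG1 stood at 158 ± 10.0 CPM in BrM2, 59.7 ± 9.35 in Par and 51.0 ± 7.70 in LM2. It rose 2.65-fold in BrM2 vs Par, a log2 fold change of 1.41 (SE = 0.19, edgeR adjusted p = 0.00166), and 3.10-fold in BrM2 vs LM2, a log2 fold change of 1.63 (SE = 0.19, edgeR adjusted p = 0.00119). Both calls held in all 9 fits that left out 1 library, and both were lost without replicate 2 (adjusted p = 0.13 and 0.141 in edgeR) or replicate 3 (0.098 and 0.0778) of all lines. In LM2 vs Par the 95% interval ran from -0.66 to 0.20 on the log2 scale (edgeR adjusted p = 0.61). Of its 50-base stretches, 9.32% also occur in transcripts of other genes, so that part of its counts is uncertain.

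EGFR, the receptor of most of these ligands, had 5563, 6639 and 8500 counts in Par, 6409, 10138 and 12136 in LM2, and 6598, 16257 and 12918 in BrM2. In CPM every BrM2 library was above every LM2 and Par library, and in both sub-populations replicate 1 was lowest. EGFR stood at 608 ± 116 CPM in BrM2, 399 ± 74.3 in LM2 and 316 ± 21.4 in Par. It was 1.92-fold higher in BrM2 than in Par, a log2 fold change of 0.94 (SE = 0.21, edgeR adjusted p = 0.0173). This call was lost without Par replicate 1, 2 or 3 or BrM2 replicate 2 or 3, with adjusted p from 0.056 to 0.0693 and log2 fold changes from 0.81 to 0.99, and without replicate 2 (0.379) or 3 (0.241) of all lines. In BrM2 vs LM2 the log2 fold change was 0.61, with an adjusted p of 0.128 in edgeR, of 0.00303 with the replicate block and of 0.0414 in DESeq2. EGFR in LM2 vs Par gave 0.34 (edgeR adjusted p = 0.443), and 0.42 with an adjusted p of 0.0197 without replicate 1 of all lines. The antisense gene EGFR-AS1, which overlaps exons of EGFR, had a mean of 11.8 counts against 9462 of EGFR.

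ERBB3, the receptor of NRG1, was low in all lines, with 123, 138 and 160 counts in Par, 153, 177 and 198 in LM2, and 158, 214 and 267 in BrM2. Its libraries did not overlap between any pair of lines in CPM, with Par lowest and BrM2 highest. The level was 11.3 ± 1.70 CPM in BrM2, 7.47 ± 0.214 in LM2 and 6.48 ± 0.196 in Par. In BrM2 vs Par, ERBB3 rose by 0.80 on the log2 scale (SE = 0.19, edgeR adjusted p = 0.0261), and so did NRG1 in the same line. The call was lost in 6 of the 9 fits that left out 1 library, those without Par replicate 1, 2 or 3, LM2 replicate 2 or BrM2 replicate 1 or 3, with adjusted p from 0.0522 to 0.122. It was also lost without the filter on low counts (0.186), with the 2 lines alone (0.061) and without replicate 2 (0.302) or 3 (0.495) of all lines. In BrM2 vs LM2 its log2 fold change was 0.60, with an adjusted p of 0.11 in edgeR, of 0.0142 with the replicate block and of 0.0241 in DESeq2. Between LM2 and Par the log2 fold change was 0.21 (SE = 0.19, edgeR adjusted p = 0.67) although the libraries did not overlap.

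ERBB2, the shared partner receptor, was not called in any comparison. It had 2722, 2143 and 2259 counts in Par, 2450, 1712 and 1734 in LM2, and 1506, 1420 and 1609 in BrM2. The lines overlapped in every comparison, and replicate 1 was the highest library of each line, by 0.58 in Par, 0.84 in LM2 and 0.68 in BrM2 over the mean of replicates 2 and 3 on the log2 scale. Against Par, LM2 gave a log2 fold change of -0.38 and BrM2 one of -0.42 (edgeR adjusted p = 0.62 and 0.503), and with the replicate block the adjusted p were 0.0297 and 0.0198. In BrM2 vs LM2 the 95% interval of the log2 fold change ran from -0.77 to 0.69 (edgeR adjusted p = 0.965). Exons of MIEN1 and PGAP3 overlap those of ERBB2 on the opposite strand, with means of 449 and 224 counts against 1951 of ERBB2, and since the counted strand is not given in the sources used here, reads of these genes may be split.

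As a group, the 6 ligands had a median log2 fold change of -0.30 in LM2 vs Par, -0.85 in BrM2 vs Par and -0.84 in BrM2 vs LM2, and the 3 receptors of 0.21, 0.80 and 0.60. The medians of all tested genes were 0.01, -0.02 and -0.03. The ligands moved apart from each other, 1 of 6 being called higher and 1 lower in LM2 vs Par. In each of the other comparisons, 1 was called higher and 3 lower. Of all genes, 4.17% were called higher and 4.52% lower in LM2 vs Par. These shares were 6.25% and 7.02% in BrM2 vs Par, and 4.11% and 3.99% in BrM2 vs LM2. No receptor was called lower in edgeR without the block, and with the block ERBB2 was called lower in both sub-populations than in Par.

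Levels of different genes were compared per kb of transcript, with the length of the canonical transcript in the GENCODE annotation, since the isoforms in use are unknown. In Par, AREG was the highest member at 51.2 ± 5.28 CPM per kb. HBEGF at 38.3 ± 5.97, EGFR at 31.9 ± 2.16, TGFA at 28.7 ± 5.75 and ERBB2 at 24.5 ± 6.15 CPM per kb followed, and the mean ± SD of each overlapped that of the next. NRG1 (4.98 ± 0.780) and EREG (4.46 ± 0.389) did not differ beyond their spread, nor did ERBB3 (1.15 ± 0.0349) and BTC (0.935 ± 0.211), and these pairs were the lowest. In LM2, HBEGF (40.5 ± 15.2 CPM per kb) and EGFR (40.3 ± 7.50) led without a difference beyond their spread. TGFA (22.3 ± 4.0), ERBB2 (18.9 ± 6.80) and EREG (11.3 ± 3.12) came after them, each overlapping the next in mean ± SD, and then NRG1 (4.25 ± 0.642) and AREG (3.93 ± 0.948), which overlapped too, ERBB3 (1.33 ± 0.0382) and BTC (0.398 ± 0.0562). In BrM2, EGFR (61.4 ± 11.7 CPM per kb) and HBEGF (57.3 ± 3.14) led and overlapped, far above ERBB2 (18.4 ± 5.46) and NRG1 (13.2 ± 0.838), which overlapped as well. TGFA (9.54 ± 1.39), EREG (4.15 ± 1.27), AREG (2.85 ± 0.324), ERBB3 (2.01 ± 0.303) and BTC (0.0866 ± 0.0384) were lower, and of these EREG and AREG overlapped. The canonical NRG1 transcript has 11983 bases and the gene 35 annotated transcripts, so that its level per kb depends on the isoform more than that of AREG, with 1234 bases and 3 transcripts.

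The makeup of the ligand RNA changed with the line. AREG made up 40.0 ± 1.46% of the summed length-scaled level of the 6 ligands in Par, 4.74 ± 0.204% in LM2 and 3.28 ± 0.485% in BrM2. HBEGF made up 29.7 ± 1.40%, 47.9 ± 7.70% and 65.7 ± 0.770%, and NRG1 3.87 ± 0.122%, 5.33 ± 1.59% and 15.2 ± 0.536%. A share also rises where another ligand of the sum falls, and HBEGF itself was not called in any comparison. The share of EREG was 14.4 ± 5.87% in LM2, against 3.51 ± 0.527% in Par and 4.74 ± 1.28% in BrM2. TGFA stood at 22.2 ± 1.38% in Par, 27.1 ± 1.13% in LM2 and 11.0 ± 1.93% in BrM2, and BTC at no more than 0.749 ± 0.245%, its value in Par. The 5 members that bind EGFR summed to 124 ± 16.5 CPM per kb in Par, 78.4 ± 17.4 in LM2 and 73.9 ± 3.09 in BrM2. Every Par library, at 113 or more, was above every library of the sub-populations, at 98.1 or less. Of these 5, AREG fell most, from 51.2 in Par to 3.93 in LM2 and 2.85 in BrM2. In the same order, HBEGF was at 38.3, 40.5 and 57.3, TGFA at 28.7, 22.3 and 9.54, and EREG at 4.46, 11.3 and 4.15. The sum without AREG was not computed, and EGF was left out of the sum. EREG relative to AREG, per length, was 0.0789 to 0.0984 in the Par libraries, 1.58 to 3.86 in LM2 and 1.02 to 2.13 in BrM2. HBEGF thus held the largest mean share in both sub-populations and AREG in Par, as a description of 3 libraries each.

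**Figure D4:**
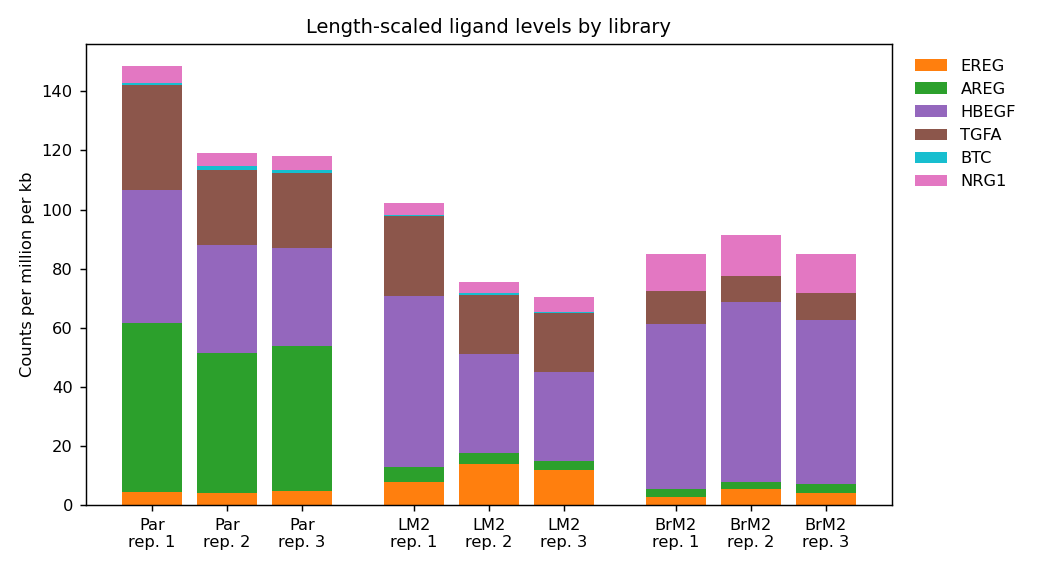
Stacked length-scaled levels of the 6 ligands in CPM per kb of canonical transcript, 1 bar per library, on an axis that starts at 0. The AREG segment is large in the 3 Par libraries and thin in the other 6, and the summed height is 118 to 149 in Par, 70.3 to 102 in LM2 and 84.8 to 91.5 in BrM2. In CPM without length scaling, the 6 ligands sum to 324 to 415 in Par, 272 to 340 in LM2 and 342 to 375 in BrM2, so that Par and BrM2 overlap.

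Of the 6 other ligands and receptors of the family, 4 did not pass the filter, namely EPGN, NRG3, NRG4 and the receptor ERBB4, which had at most 6 counts in any library. EGF, the ligand that names the family, had 69, 188 and 205 counts in Par, 56, 127 and 144 in LM2, and 12, 25 and 26 in BrM2. In BrM2 vs Par, EGF had a log2 fold change of -2.67 (SE = 0.43, edgeR adjusted p = 0.0036), and in BrM2 vs LM2 one of -2.04 (SE = 0.42, edgeR adjusted p = 0.0183). EGF passed the filter on low counts only through Par and LM2, where it was higher. LM2 vs Par gave -0.62 (edgeR adjusted p = 0.448, and 0.034 with the block). NRG2, a neuregulin best known from the nervous system, had 11, 2 and 9 counts in Par, 55, 24 and 29 in LM2, and 58, 62 and 62 in BrM2. It rose by 3.26 in BrM2 vs Par (SE = 0.60, edgeR adjusted p = 0.00742), and with the replicate block it was called in LM2 vs Par as well (2.21, adjusted p = 0.0567 without and 0.00141 with the block, edgeR), as it was in BrM2 vs LM2 (1.05, 0.296 without and 0.00912 with the block). NRG2 passed the filter only through the sub-populations, its counts in Par being at most 11. NRG2, like NRG1, was highest in BrM2, and EGF, like TGFA and BTC, was lowest there.

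Among the 9 genes of ligand shedding, 1 was called lower in each comparison and none higher in edgeR, near the share of all genes. That share was 8.69% in LM2 vs Par, 13.3% in BrM2 vs Par and 8.1% in BrM2 vs LM2. The list medians were -0.36, -0.52 and 0.05 in the same order. ADAM12, a protease that can cleave HBEGF, had 113, 130 and 131 counts in Par, 87, 138 and 155 in LM2, and 12, 18 and 12 in BrM2. In BrM2 its log2 fold change was -2.95 against Par (SE = 0.27, edgeR adjusted p = 0.000233) and -2.82 against LM2 (SE = 0.27, edgeR adjusted p = 0.000407). ADAM12 passed the filter on low counts only through Par and LM2, its counts in BrM2 being at most 18. RHBDF1, which encodes iRhom1, a cofactor of ADAM17, fell by 0.89 in LM2 vs Par (SE = 0.23, edgeR adjusted p = 0.0491), from 38.8 to 20.9 CPM on average, and had -0.75 in BrM2 vs Par (adjusted p = 0.0705, edgeR, and 0.00491 with the block). ADAM17, the main sheddase of AREG and TGFA, named here after its values were seen, was not called, with log2 fold changes of -0.37 for LM2 and 0.65 for BrM2 against Par (edgeR adjusted p = 0.684 and 0.328). With the block, ADAM17 had adjusted p of 0.0233 and 0.00111, and in BrM2 vs LM2, where its log2 fold change was 1.02, of 7.95e-05 against 0.146 without it. The block called 4 of the 9 genes in LM2 vs Par, all lower, 5 lower and 1 higher for BrM2 vs Par, and 2 in each direction in BrM2 vs LM2, beside 34.5%, 42.7% and 37.5% of all genes.

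Among feedback inhibitors, ERRFI1 and DUSP6 were lower in LM2 than in both other lines. ERRFI1, which encodes MIG6, an inhibitor of the EGFR kinase, stood at 121, 141 and 154 CPM in the LM2 libraries. It was between 207 and 272 CPM in Par and between 199 and 245 CPM in BrM2, with no overlap with LM2. It fell by 0.74 in LM2 vs Par (SE = 0.19, edgeR adjusted p = 0.0426) and was higher by 0.72 in BrM2 vs LM2 (SE = 0.19, edgeR adjusted p = 0.0477). DUSP6, a phosphatase that inactivates ERK, stood at 114, 130 and 125 CPM in LM2, 186 to 275 CPM in Par and 234 to 236 CPM in BrM2. It fell by 0.83 in LM2 vs Par (SE = 0.19, edgeR adjusted p = 0.0276) and was higher by 0.93 in BrM2 vs LM2 (SE = 0.19, edgeR adjusted p = 0.0167). ERRFI1 was the only called gene among 11 negative regulators and DUSP6 among 10 MAP kinase target genes, both for LM2 vs Par and for BrM2 vs LM2. Of all genes, 8.69% and 8.1% were called there, so that 1 call per list is near that share. Neither list had a call in BrM2 vs Par in edgeR, where 13.3% of all genes were called. The list medians were between -0.06 and 0.18, near those of all genes. In BrM2 vs Par the smallest adjusted p were those of UBASH3B (0.0582) and LRIG1 (0.113) among the regulators and of DUSP4 (0.151) and ETV5 (0.261) among the targets, in edgeR. At an unadjusted p under 0.05 in edgeR, 3 regulators and 1 target passed there, beside 3265 of all 13055 genes. DESeq2 called 3 regulators and 1 target by adjusted p, beside 19.3% of all genes. With the block, 2 regulators were called higher and 2 lower in LM2 vs Par, 4 higher in BrM2 vs Par and 3 higher in BrM2 vs LM2. Of the targets, the block called 1 in each direction in LM2 vs Par, 2 higher for BrM2 vs Par, and 2 higher and 1 lower in BrM2 vs LM2. The block's shares of all genes in these comparisons were 34.5%, 42.7% and 37.5%.

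None of the 12 genes of adaptors and first effectors, such as GRB2, SOS1 and PIK3CA, was called in any comparison in edgeR, beside 8.69%, 13.3% and 8.1% of all genes. Their medians were 0.14, 0.09 and 0.13. Their smallest adjusted p were 0.527 for GAB2 and 0.543 for PIK3R1 in LM2 vs Par, 0.141 for STAT3 and 0.374 for PIK3R1 in BrM2 vs Par, and 0.567 for STAT3 and 0.637 for GAB2 in BrM2 vs LM2. With the replicate block, LM2 vs Par had 2 calls, both higher, BrM2 vs Par had 4 higher and 1 lower, and 1 was called in each direction in BrM2 vs LM2, again beside 34.5%, 42.7% and 37.5% of all genes. At an unadjusted p under 0.05 in edgeR, 0, 1 and 0 of the 12 passed in LM2 vs Par, BrM2 vs Par and BrM2 vs LM2. Of all 13055 genes, 2640, 3265 and 2730 passed in this way. DESeq2 called 0 of the 12 by adjusted p in each, beside 14.5%, 19.3% and 14% of all genes. The last list holds the 6 genes AFAP1L2, CBLB, DAB2IP, HIP1, SH3KBP1 and ZFYVE28 that the study assigned to EGFR terms among genes with repressed enhancers. CBLB is a ubiquitin ligase that marks active EGFR for breakdown, SH3KBP1 takes part in its uptake, and HIP1 links clathrin to actin. Relative to Par, all 6 were called lower in LM2 and 5 in BrM2, with ZFYVE28 at -0.99 and an adjusted p of 0.069 in BrM2 (0.00277 with the block). On the log2 scale the differences from Par, LM2 first, were -1.60 and -1.55 for HIP1, -1.83 and -1.35 for CBLB, -1.03 and -1.08 for SH3KBP1 and -1.13 and -1.63 for AFAP1L2, and the median of the 6 was -1.55 in LM2 and -1.31 in BrM2. The study chose these genes from these libraries, so their direction is not independent evidence. In edgeR without the block none of them was called in BrM2 vs LM2, where AFAP1L2 (0.2) and CBLB (0.312) had the smallest adjusted p in edgeR. There 1 of the 6 had an unadjusted p under 0.05, beside 2730 of all 13055 genes, and DESeq2 called 0, beside 14% of all genes. With the block AFAP1L2 was called lower (0.0176) and CBLB higher (0.0372) in BrM2 than in LM2.

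**Figure D5:**
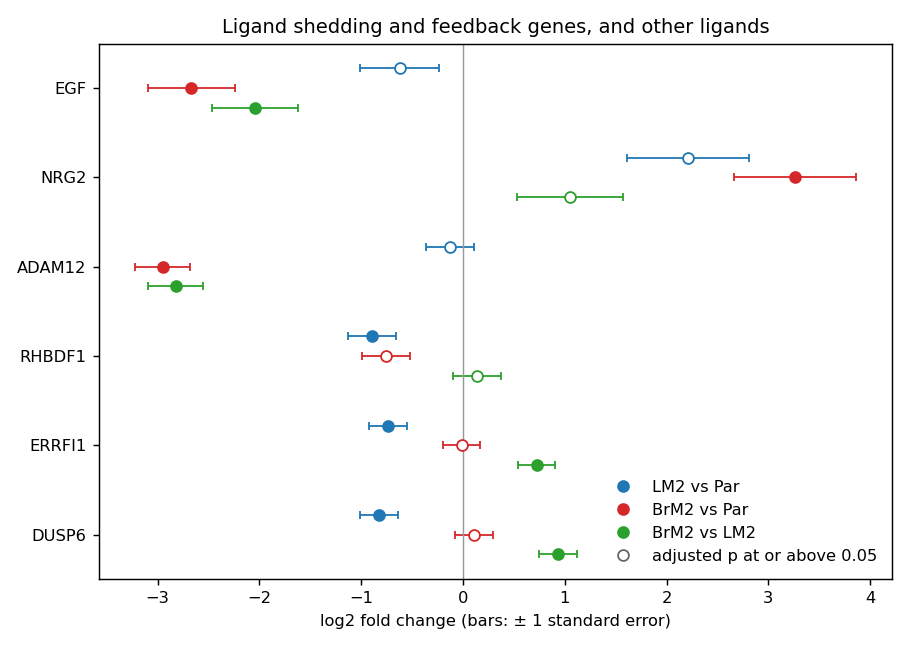
Fitted log2 fold changes of EGF, NRG2, ADAM12, RHBDF1, ERRFI1 and DUSP6 in the 3 comparisons, with bars of ± 1 standard error; filled points have an adjusted p under 0.05 in edgeR. ERRFI1 and DUSP6 are lower in LM2 vs Par, near 0 in BrM2 vs Par and higher in BrM2 vs LM2, and EGF and ADAM12 are lowest in BrM2.

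For each member, the genes of most similar pattern were those with the smallest root mean square difference of log2 CPM over the 9 libraries, each gene centred on its own mean. Such patterns also carry the deviation of replicate 1. For AREG these were SORL1, GASK1B and CLDN2, at 0.33, 0.40 and 0.41 against an SD of 1.86 of AREG itself. TGFA was most like NEK6, PRSS23 and GSTM3 (0.11 to 0.15, SD 0.70), BTC like PPFIA4, SLFN13 and MLXIPL (0.30 to 0.31, SD 1.28) and EREG like DLEU1, LINC03002 and MKX (0.17 to 0.18, SD 0.72). NRG1 was most like MEX3A, HK2 and ABCG2 (0.19 to 0.22, SD 0.74) and HBEGF like VPS33A, ARMCX6 and HSP90AB3P (0.13 to 0.14, SD 0.38). Among the receptors, EGFR was most like C12orf75, BTG3 and WDR12 (0.06 to 0.11, SD 0.43), ERBB2 like LTBR, ADD1 and SNAP47 (0.05 to 0.08, SD 0.40) and ERBB3 like MAPRE2, GABARAPL2 and CCT4 (0.11, SD 0.35). None of the 9 members was among the nearest genes of another.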

How the data were processed

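RNA-seq libraries of Par, LM2 and BrM2 (3 replicates each) were made by the authors with a stranded mRNA kit and sequenced as paired ends. The reads were aligned to hg38 and counted per gene with STAR 2.7.0, and the deposited counts are not normalized. The strand that was counted is not given in the sources used here. The deposited table of the authors' DESeq2 comparisons, with log2 fold changes and adjusted p-values, was not used. Groups and replicate numbers came from the sample titles, and 0 columns were left out.

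The table has 58887 rows, and after summing 3 repeated identifiers it holds 58884 genes, of which 34056 had a count in some library. A filter modelled on HTSFilter kept the 13055 genes with a normalized count above 47.15 in some library, which hold 99.64% to 99.78% of the counts. edgeR 4.0.16 was used with TMM factors and its 2-sided quasi-likelihood test on all 9 libraries, and DESeq2 1.42.0 as an alternative, in R 4.3.3. Tests were run on simulated data with known changes first. Log2 CPM for gene patterns used a prior count of 2. Intervals are at 95%. The replicate block takes the replicate numbers as pairing the libraries. Deviations from the line means correlated at 0.23 to 0.90 across genes in all 9 same-numbered pairs. Since replicate 1 stood apart, centring on the line means can by itself make replicates 2 and 3 correlate across lines. Pairs of unlike number were not compared, so pairing of replicates 2 and 3 by number is not shown. The labels and methods give no shared day or batch. The alternatives were other size factors, filters and tests, the replicate block, the 2 lines compared alone, and fits without single libraries or replicate numbers.

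Members and gene lists were chosen with earlier results of these data known. Besides the members, the text names up to 4 called genes with the smallest adjusted p of each pathway list and comparison (the 2 smallest where none was called), the neighbours on chromosome 4, the 3 genes most like each member and cell type markers, and ADAM17 outside this rule, after its values were seen. Transcript lengths and overlaps came from a GENCODE annotation of GRCh37, and positions and promoters from RefSeq (GRCh38.p14).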

Additional observations from a re-analysis of the deposited data

Results flagged for a closer look

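For 4 members, the change against Par differed between the sub-populations by the direct test of BrM2 against LM2 in edgeR, which called 8.1% of all genes. Without replicate 2 or 3 of all lines none of the 4 was called, beside 0.406% and 0.866% of all genes. For EREG the difference was -1.44 on the log2 scale (adjusted p = 0.017), with a rise in LM2 and libraries of BrM2 that overlapped those of Par. NRG1 differed by 1.63 (adjusted p = 0.00119), with a rise in BrM2 and overlapping libraries of LM2 and Par. For TGFA it was -1.22 (adjusted p = 0.0103) and for BTC -2.18 (adjusted p = 0.011), both lower in BrM2 than in LM2 and Par. All 3 replicate numbers showed each of these directions. Groups of 3 libraries are too small for a test of single outlying libraries.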

How the results depend on the processing

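Each of the 9 members was taken in each of the 3 comparisons under 18 other settings, which gave 1 result per member, comparison and setting. Direction and call were kept in 411 of these results, while 43 lost the call, 22 gained one and 10 changed sign. The changes of sign were in differences not called: HBEGF in LM2 vs Par (-0.27 to 0.26 over fits without 1 library or 1 replicate number), EREG in BrM2 vs Par (-0.40 to 0.13) and ERBB2 in BrM2 vs LM2 (-0.30 to 0.30). AREG kept both calls against Par under every setting tried, with adjusted p up to 0.0447 in LM2 and 0.0287 in BrM2. The replicate block called 4510 (LM2 vs Par), 5577 (BrM2 vs Par) and 4896 (BrM2 vs LM2) genes, against 1134, 1733 and 1057 without it, and 5, 8 and 7 members. It changed no call of a member other than those given beside the results. DESeq2 called 1893, 2520 and 1824 genes in the same order, with BTC in LM2 vs Par and EGFR and ERBB3 in BrM2 vs LM2 as members that edgeR did not call. With the 2 lines alone, 598 genes were called in BrM2 vs LM2. Without single libraries or replicate numbers, 70 to 4327 genes and 1 to 6 members were called in LM2 vs Par, 159 to 5274 and 1 to 8 in BrM2 vs Par, and 53 to 4257 and 0 to 6 in BrM2 vs LM2. The lowest of these counts of genes came without replicate 2 of all lines and the highest without replicate 1. With relative log expression factors, the median log2 fold change of all genes was 0.05, 0.01 and -0.04, and no member changed its call. With the longest in place of the canonical transcript, 2 of 18 ligand shares moved by more than their SD. The cause of these changes was not tested. As limits there are the 3 libraries per line, the few counts of BTC in BrM2 and the isoform in use, which gene counts do not give.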
